A study of Mus musculus with 12 samples.

Results

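The genes described here mark the glial lineage of the mouse brain. They comprise 38 listed genes, of which 12 are characteristic of radial glia, 20 are characteristic of maturing astrocytes and 6 are shared by both cell types. The members were chosen by gene symbol, by taking the main probesets that the array's annotation assigns to each symbol. In all, 37 of them could be measured, among 17279 genes with a kept probeset: no main probeset carried the symbol Ptprz1, which is not analysed here. The study compared the brains of 6 wildtype mice (KIS +/+) with those of 6 KIS-ko mice, all newborn females, as 6 pairs of littermates with 1 pair per litter. KIS is the protein kinase encoded by Uhmk1, and the knockout line had been backcrossed to the C57BL6/N background. Each whole brain gave 1 RNA sample, which was read on its own Mouse Exon 1.0 ST array (Affymetrix). The labels name no other allele and no treatment in either group.

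Radial glia are the neural stem cells of the embryonic brain. Their cell bodies line the ventricle, they divide to give neurons, and around birth many of them turn into astrocytes. Notch receptors keep them in the stem cell state through the repressors Hes1 and Hes5, and Id proteins block the factors that drive neuronal differentiation. Astrocytes arise late, and acquire after birth their transporters, water and gap junction channels, lipid carriers and the filament protein Gfap. Whole brain RNA mixes all cell types, so that fewer cells of a type and less RNA per cell cannot be told apart in these data.

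The promoters of 2 members are shown, each with matches to a short motif: Hes5, a direct Notch target of radial glia, and Gfap, the astrocyte filament gene. Both come from RefSeq (build GRCm38.p6) and run 5′ to 3′ on the strand of the gene. Capitals mark GTGGGAA, bound by the Notch partner RBPJ (searched on both strands) in Hes5, and TTCNNNGAA, bound by STAT factors, in Gfap.
Hes5 (chr4:154960673-154960972, plus strand): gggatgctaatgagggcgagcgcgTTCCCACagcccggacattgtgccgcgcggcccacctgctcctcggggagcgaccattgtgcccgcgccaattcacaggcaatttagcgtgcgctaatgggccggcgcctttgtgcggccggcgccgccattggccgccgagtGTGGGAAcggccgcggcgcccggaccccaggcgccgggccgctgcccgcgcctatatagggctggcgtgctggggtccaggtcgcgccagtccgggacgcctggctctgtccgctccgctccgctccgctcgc
Gfap (chr11:102897151-102897450, minus strand): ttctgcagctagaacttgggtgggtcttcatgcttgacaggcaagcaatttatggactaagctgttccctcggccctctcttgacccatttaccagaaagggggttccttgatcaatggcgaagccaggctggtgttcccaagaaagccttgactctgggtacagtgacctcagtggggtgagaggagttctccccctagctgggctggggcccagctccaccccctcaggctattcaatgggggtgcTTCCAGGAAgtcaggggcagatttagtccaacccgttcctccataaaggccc
The Hes5 promoter held 2 matches to GTGGGAA, which began at positions -226 and -83 relative to the start, and the Gfap promoter held 1 match to TTCNNNGAA, which began at position -2. GTGGGAA was present in 6.38% of the 32851 mouse promoters of the same length, and in 7 of the 39 promoters that the table gives for 31 members. These belonged to 5 genes: Aldoc, Hes5, Mfge8, Mt2 and Tnc. TTCNNNGAA was present in 8.30% of all promoters and in 5 of the 39 member promoters, those of Acsbg1, Aldoc, Gfap, Ntsr2 and Pla2g7. The longer palindromic motif of NFI factors was found in 0.0365% of promoters and in no member. The match in Gfap ran across the start itself. These matches describe the letters of the window and are not evidence of binding, and they were not compared with known sites of these factors.

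A gene value is the mean, over the kept probesets of a gene, of log2(PLIER signal + 16), after each array was centred on the median of all gene values. PLIER signals are linear fluorescence estimates for single exons or parts of them. The median signal of the 12 arrays ranged from 478 to 546, and the gene values of any pair of arrays correlated at between 0.977 and 0.990. Uhmk1 lay between 10.87 and 10.99 in the wildtype brains and between 8.69 and 9.09 in the KIS-ko brains. Its difference, KIS-ko minus wildtype, was -2.06 on the log2 scale, with an adjusted p of 6.0e-06 in limma, and it ran from -2.21 to -1.86 across litters. The genotype labels were thus borne out in each of the 12 brains.

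Most of the glial genes gave signal above background at birth: in 28 of 37 a majority of the kept probesets exceeded the control level. This was the case for 6114 of all 17279 genes and for 6111 of the 8640 genes above the median level. The array holds intron probesets as controls, and a probeset was called above control when its mean signal exceeded the 95th percentile of the 5222 controls, 713. Of the 177 kept probesets of radial glia genes 130 were above control (73.4%), as were 172 of the 230 of maturing astrocyte genes (74.8%) and 62 of the 70 of shared genes (88.6%). Over all kept probesets on the array the share was 44.6%, and over those of genes above the median level it was 68.5%. Probes differ in affinity, so that signals do not order genes by their level, and the shares are given as a description.

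Among the radial glia genes, all kept probesets were above control for Fabp7, the brain fatty acid binding protein (5 of 5), for the stem cell factor Sox2 (6 of 6) and for the matrix protein tenascin C, Tnc (29 of 29). The intermediate filament vimentin, Vim, had 13 of 14 above control, and the receptors Notch1 and Notch2 had 35 of 39 and 27 of 36. Nestin, Nes, the other filament of these cells, had 5 of 21. Of the Notch targets, Hes5 had 4 of 5 above control whereas Hes1 had none of 7. The Id inhibitors were as uneven: Id4 had 5 of 6, Id3 had 1 of 4 and Id1 had none of 5. No probeset of Hes1 and Id1 thus passed the control level, and values of these 2 genes are close to background.

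The astrocyte genes were likewise split. Lipid carriers and secreted proteins were among the clearest: 11 of 11 probesets of the lipoprotein Apoe, 14 of 14 of Sparcl1, 11 of 12 of Sparc and 6 of 6 of the protease inhibitor Cst3 were above control. Bcan, a proteoglycan of the matrix, had 17 of 18, and the chaperone Clu had 9 of 13. Of the metabolic genes, glutamine synthetase Glul (7 of 7), Aldoc (9 of 10), Pla2g7 (12 of 15) and Aldh1l1 (20 of 27) were mostly above control, and the acyl-CoA synthetase Acsbg1 was not (9 of 19). The metallothionein Mt2 (4 of 4), Ndrg2 (15 of 16) and the gap junction protein Gja1 (3 of 3) were above control throughout or nearly so, and the water channel Aqp4 had 10 of 14. Fewer probesets were above control for other astrocyte genes, with 4 of 12 for Gfap, 8 of 15 for the membrane protein Mlc1, 1 of 5 for the gap junction gene Gjb6, 1 of 3 for the calcium binding protein S100b and 1 of 6 for the neurotensin receptor Ntsr2. The shared genes were above control in a majority of their probesets: Ttyh1 (20 of 20), Mfge8 (14 of 14), Dbi (7 of 7), the transcription factor Sox9 (7 of 8) and the receptor Fgfr3 (14 of 21).

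**Figure D1:**
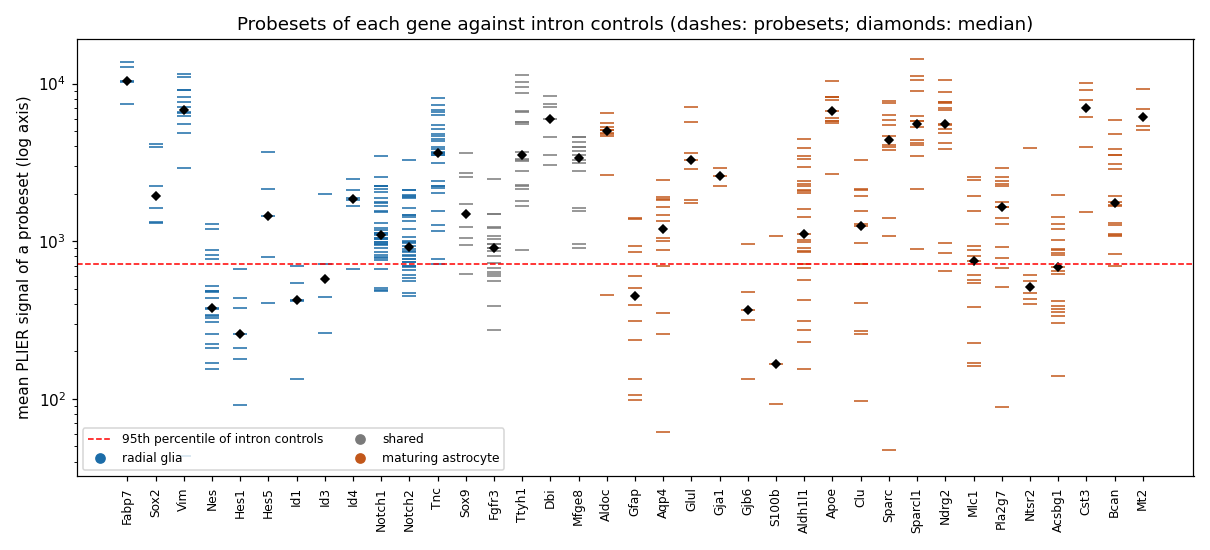
Mean PLIER signal of every kept probeset over the 12 brains (vertical log axis) for each of the 37 genes (horizontal axis), with the median per gene as a diamond and the 95th percentile of the intron controls, 713, as a dashed line. All dashes of Hes1 and Id1 lie below the line, and those of Fabp7, Tnc, Ttyh1 and Apoe lie above it.

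The next question was whether these genes varied together from brain to brain. For this purpose each gene's genotype mean was removed and Pearson's r was computed for each pair of genes over the 12 brains. Mean r was 0.147 over the 66 pairs of radial glia genes and 0.239 over the 190 pairs of astrocyte genes, with jackknife standard errors over litters of 0.099 and 0.084. It was 0.307 among the shared genes and -0.042 between radial glia and astrocyte genes (standard error 0.070). Over pairs of all genes mean r was 0.058. The mean of the shared genes was 0.144 without litter 5 and 0.213 without litter 2. The genes share arrays and litters, and no test was run on these means.

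The mean r of the shared genes with each list is given as a description. It was 0.319 with astrocyte genes against -0.037 with radial glia genes for Sox9, 0.239 against -0.20 for Fgfr3, 0.308 against -0.16 for Ttyh1 and 0.307 against 0.037 for Dbi. For Mfge8, the secreted phagocytosis factor, the values were 0.198 and 0.151, the latter being the highest of the 5 shared genes with radial glia genes. With the additional lists of the same cell types the order was not the same: mean r of the shared genes was 0.207 with 16 other radial glia genes, 0.197 with 19 other Notch pathway genes and 0.093 with 19 other astrocyte genes. It was 0.241 with 5 erythroid genes and 0.213 with 7 choroid plexus and ependymal genes. Not every gene followed its list. Acsbg1 had a mean r of 0.20 with the radial glia genes and -0.032 with the other astrocyte genes, and Gja1 had -0.12 with the latter. Notch1 had a mean r of 0.377 with the shared genes and 0.119 with the other radial glia genes.

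**Figure D2:**
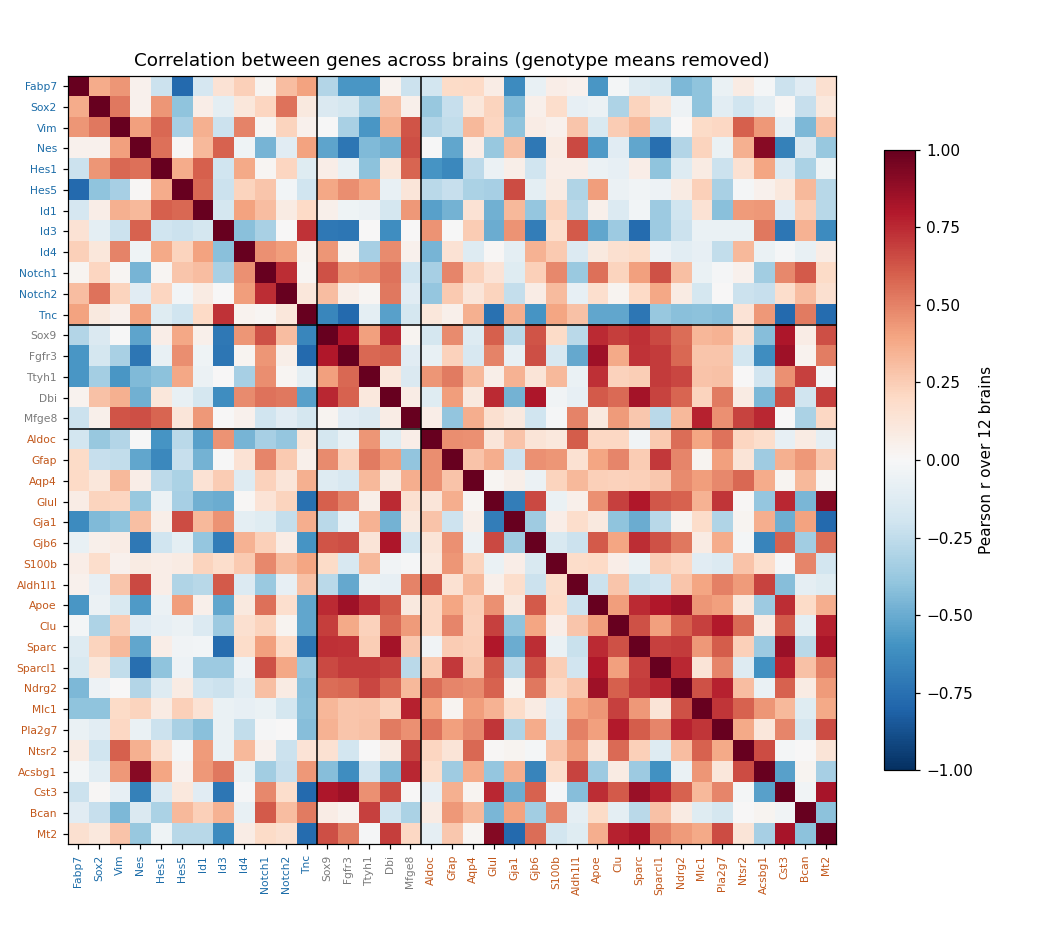
Pearson's r over 12 brains between the values of 37 genes after removal of genotype means, from -1 (blue) to 1 (red), with black lines between radial glia, shared and maturing astrocyte genes. A red block joins Sox9, Fgfr3 and Dbi to Glul, Apoe, Clu, Sparc, Cst3 and Mt2, whereas the radial glia block is mixed in colour.

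For 12 pairs of genes related by function r was tested by permutation with 100000 resamples, which treats littermates as independent. None passed an adjusted p of 0.05 over the 12 pairs. The highest r was that of the matrix proteins Sparc and Sparcl1 (r = 0.69, permutation p = 0.0092, adjusted p = 0.11; Spearman's rho = 0.71, p = 0.013, adjusted p = 0.16), and it was 0.49 after leaving out the 2 brains farthest from the median of Sparc. Over within-litter differences the same pair had r = 0.30 (exact permutation p = 0.60, rho = 0.029). The filaments Nes and Vim had r = 0.41 (permutation p = 0.19, adjusted p = 0.44), and the Notch targets Hes1 and Hes5 had r = 0.37 (permutation p = 0.23, adjusted p = 0.44). The gap junction genes Gja1 and Gjb6 had a negative value (r = -0.36, permutation p = 0.26, adjusted p = 0.44), and so did Nes and Gfap (r = -0.52, permutation p = 0.085, adjusted p = 0.44). Over within-litter differences of 6 litters, Apoe and Clu had the highest value (r = 0.90, exact permutation p = 0.018, adjusted p = 0.22), with rho = 1 and an adjusted p of 0.033, and r was 0.62 without 2 litters. On the arrays as deposited, without centring, the pair Nes and Vim passed the threshold (r = 0.83, permutation adjusted p = 0.012).

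Some other pairs were picked after their values were seen, and are given with no test. Mt2, which buffers zinc and copper, had r = 0.92 with Glul, 0.82 with Cst3 and 0.82 with Sparc, but -0.78 with Gja1 and -0.77 with Tnc. Without the 2 brains farthest from the median of Mt2 these values were 0.77, 0.44, 0.35, -0.76 and -0.37, so that those with Cst3, Sparc and Tnc rested in part on 2 brains. Over within-litter differences they were 0.95, 0.75, 0.62, -0.36 and -0.68, the weakest being that with Gja1. Nes and Acsbg1 had r = 0.91 over brains and 0.88 over within-litter differences. Fabp7 and Hes5, both radial glia genes, had r = -0.78 over brains, -0.97 over litter means and -0.28 over within-litter differences. Notch1 and Notch2 had r = 0.74 over brains and 0.75 over within-litter differences. On the arrays as deposited, r over brains was -0.31 for Fabp7 and Hes5, 0.51 for Notch1 and Notch2 and 0.96 for Nes and Acsbg1. For Mt2 it was 0.68 with Glul, 0.76 with Cst3, 0.75 with Sparc, -0.53 with Gja1 and -0.69 with Tnc.

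Litter 5 stood apart for many of these genes. The mean of its 2 brains was the highest of the 6 litters for 11 of 20 astrocyte genes: Glul, Gjb6, Apoe, Clu, Sparc, Sparcl1, Ndrg2, Mlc1, Pla2g7, Cst3 and Mt2. Over all genes it was the highest for 45.7%. It was the highest also for 3 of the 5 shared genes (Sox9, Fgfr3 and Dbi) and for 2 radial glia genes (Id4 and Notch1), and the lowest for the radial glia genes Nes, Id3 and Tnc and for the astrocyte gene Acsbg1. This was not particular to glial genes, since litter 5 was the highest or lowest for 54.1% of the 37 members and for 63.1% of all genes. Mt2 was 13.08 and 12.99 in the wildtype and KIS-ko brain of litter 5, against 12.32 to 12.79 in all other brains. Markers of other cells were followed in the same litter, and only some of them were high there. The mean value of 5 erythroid genes was 9.55 and 9.60 in its wildtype and KIS-ko brain, against 9.31 to 9.51 in all others. That of 7 choroid plexus and ependymal genes was 9.05 and 9.08, against 8.93 to 9.06. That of 9 oligodendrocyte lineage genes was 9.38 and 9.51, against 9.26 to 9.41, so that the wildtype brain lay within the range of the others. That of 9 microglial genes was 8.43 and 8.45, against 8.26 to 8.40. That of 9 endothelial genes (9.70 in both) lay within the range of the others, 9.65 to 9.84, and the proliferation markers were 8.96 and 8.86, against 8.74 to 8.97. Meningeal markers were 9.88 in the wildtype brain, against 9.76 to 9.86, but 9.78 in the KIS-ko brain. Their part in these values was not tested. Without litter 5 mean r was 0.227 among radial glia genes, 0.255 among astrocyte genes and 0.144 among the shared genes, beside 0.038 over pairs of all genes.

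How far littermates resembled each other varied between genes, which is given as a description with no test. Across the 6 litters the r between wildtype and KIS-ko brain was 0.93 for Dbi, 0.88 for Fgfr3, 0.85 for Cst3, 0.84 for Nes and 0.84 for Mt2. It was negative for 11 of the 37 members, with the lowest values for Sox2 (-0.80) and S100b (-0.75). The median over the 37 members was 0.254, beside 0.246 over all genes and 0.423 over genes above the median level.

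The comparison between genotypes was made within litters. No glial gene passed an adjusted p of 0.05 in limma with litter as a block, that is 0 of 37 members, beside 0.00579% of all genes, which is Uhmk1 alone. In simulated arrays the same fit called 26.5% of the genes given a change of 0.25 log2 and 84.5% of those given 0.5. The differences of the members were at most 0.22 in size, so that changes of that size could be missed here. At an unadjusted p under 0.05 there was 1 of 37 members, Gfap, beside 6.49% of all genes (1.67% lower and 4.82% higher in KIS-ko). The values of the 2 genotypes overlapped for each member, and did not overlap for 0.185% of all genes. At the level of single probesets none of the 477 kept probesets of the members passed the adjusted threshold (0.00779% of all probesets did) and 20 of them, 4.19%, had an unadjusted p under 0.05, beside 6.3% of all probesets.

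The signs of the differences are given next, as counts without a test. Of the radial glia genes 9 of 12 were higher in KIS-ko brains, with a median difference of 0.040 log2, and of the astrocyte genes 17 of 20 were lower, with a median of -0.031. Among the shared genes 2 were higher and 3 lower (median -0.0069). Over all genes 62.9% were higher and 37.1% lower, with a median of 0.021, and in bins of equal size by level, the 3 dimmest had medians of 0.068 to 0.078 and held 0 of the members. The brightest bin, which held 17 of the 37 members, had a median of 0.022 with 26.4% lower. Over the 8640 genes above the median level 56.3% were higher and 43.7% lower, with a median of 0.0076. On the arrays as deposited, without centring, every difference shifts by the same -0.057: the median of all genes was -0.036, that of the radial glia genes turned to -0.017 and that of the astrocyte genes was -0.088. The signs of small differences thus depend on where 0 is set, and the position of a list relative to all genes is the same in both scalings by construction.

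The same medians are given by litter. The median difference of the radial glia genes was 0.053, 0.12, 0.058, -0.057, 0.014 and 0.10 in litters 1 to 6, with an SD of 0.063, and was above 0 in 5 of 6 litters. That of the astrocyte genes was -0.032, -0.14, 0.087, -0.044, -0.013 and -0.068, with an SD of 0.075, and was below 0 in 5 of 6. The radial glia median was above the astrocyte median in 4 of the 6 litters. In litter 3 the order was opposite, since 17 of the 20 astrocyte genes were higher in the KIS-ko brain, and in litter 4 both medians were below 0. The median of all genes in litters 1 to 6 was 0.030, 0.053, 0.014, -0.027, -0.0015 and 0.051, and it moved in the same direction as the radial glia median in 5 of the litters.

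**Figure D3:**
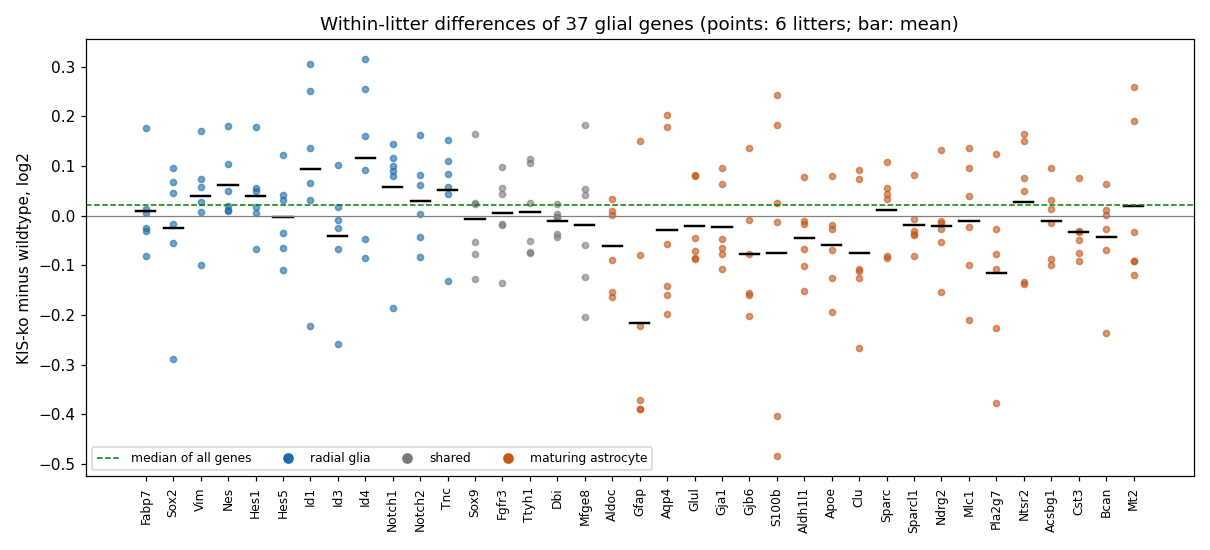
Difference KIS-ko minus wildtype (log2, vertical axis) in each of the 6 litters (points) and their mean (bar) for 37 genes, with the median of all genes, 0.021, as a dashed line. In these centred values points spread on both sides of 0 for every gene but Nes, and the mean of Gfap, -0.22, is the farthest from 0.

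Gfap, the filament that marks astrocytes, had the difference of largest size among the 37 members when all kept probesets were used. It lay between 8.65 and 8.91 (median 8.86) in wildtype and between 8.26 and 8.90 (median 8.57) in KIS-ko brains. Its difference was -0.39, -0.22, -0.080, -0.37, 0.15 and -0.39 in litters 1 to 6. It was thus lower in KIS-ko in 5 of 6 litters and higher in litter 5, and the ranges of the genotypes overlapped. The mean difference was -0.22 ± 0.076 (SE, n = 6 pairs, limma p = 0.022, adjusted p = 0.73), that is 0.86 times the wildtype level, and the two-sided exact sign-flip test gave p = 0.094. For this and all other genes the value after ± is the SE of the limma fit over the 6 pairs. Of its 12 probesets, 11 were lower in KIS-ko, from -0.55 to -0.036, and the other differed by 0.021. The 4 probesets above the intron controls differed by 0.021, -0.19, -0.042 and -0.15 from the 5′ to the 3′ side, and the most negative values came from probesets at or below the control level. When dim probesets were left out the difference of Gfap was -0.12, smaller in size than that of Gjb6 (-0.27), and the unadjusted p of Gfap was no longer under 0.05. The same held without litter 1, 4 or 6, where it was -0.18, -0.19 and -0.18. Without litter 2, 3 or 5 it was -0.22, -0.24 and -0.29, with an unadjusted p still under 0.05. The gene spans positions 102749993 to 102758371 of chromosome 11, minus strand, as listed in the array table, which names no build.

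**Figure D4:**
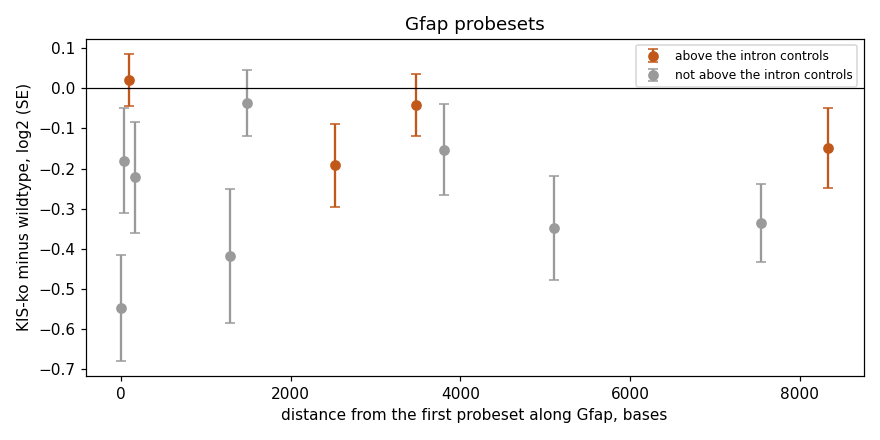
Difference KIS-ko minus wildtype (log2, vertical axis, error bars show SE over 6 litters) of the 12 Gfap probesets against their distance in bases from the probeset at the 5′ end. The 4 probesets above the intron controls (orange) lie between -0.19 and 0.021, and the grey ones, not above the controls, reach -0.55.

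Of the other filaments, Nes was the only member with the same direction in all 6 litters after centring, which was the case for 3.41% of all genes. It lay between 8.63 and 8.89 (median 8.70) in wildtype and between 8.64 and 8.94 (median 8.78) in KIS-ko brains. The difference was 0.062 ± 0.036 (SE, n = 6 pairs, limma adjusted p = 0.73), from 0.0086 to 0.18 across litters, and the exact sign-flip p was 0.031, the smallest that 6 pairs can give. These values rest on the centring of the arrays. On the arrays as deposited the difference of Nes was 0.0056, with 2 litters higher and 4 lower and an exact sign-flip p of 0.94. Without litter 3 it was 0.039 in the centred values. Vim differed by 0.039 ± 0.041, and was higher in 5 of 6 litters after centring and in 3 of 6 as deposited. Without litter 6 its difference was 0.013.

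Among transcription factors and their inhibitors Id4 had the largest difference. It lay between 10.46 and 10.79 (median 10.64) in wildtype and between 10.59 and 10.87 (median 10.73) in KIS-ko brains, and was higher in 4 of 6 litters. The mean difference was 0.12 ± 0.060 (SE, n = 6 pairs, limma adjusted p = 0.73, exact sign-flip p = 0.16), and its 6 probesets all differed in the same direction, from 0.050 to 0.19. Without litter 6 the difference was 0.075. Id1 differed by 0.095 ± 0.067, with no probeset above control, and Id3 by -0.040 ± 0.049. The Notch targets Hes1 and Hes5 differed by 0.040 ± 0.039 and -0.0024 ± 0.040, Sox2 by -0.025 ± 0.054 and Sox9 by -0.0069 ± 0.044. Thus neither the Notch targets nor the Sox factors differed by more than about their standard error.

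The receptors Notch1 and Notch2 differed by 0.057 ± 0.049 and 0.030 ± 0.041. Notch1 was higher in 5 of 6 litters and lower by 0.19 in litter 4, without which its difference was 0.11, and 31 of its 39 probesets were higher. Of the 19 measured genes of the Notch pathway outside the members, 12 were higher and 7 lower (median 0.012), and none passed the test. The 3 with the lowest unadjusted p were the DNA binding partner Rbpj (-0.070 ± 0.038), the gamma-secretase subunit Ncstn (-0.062 ± 0.036) and the Notch modifier Lfng (0.061 ± 0.038). Fgfr3 differed by 0.0048 ± 0.039 and Ntsr2 by 0.028 ± 0.052.

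Of the metabolic genes Pla2g7, a phospholipase that hydrolyses platelet activating factor, had the largest difference. It lay between 10.21 and 10.45 (median 10.31) in wildtype and between 10.08 and 10.36 (median 10.17) in KIS-ko brains. The difference was -0.12 ± 0.063 (SE, n = 6 pairs, limma adjusted p = 0.73, exact sign-flip p = 0.19), with 5 of 6 litters and 13 of 15 probesets lower, and it was -0.063 without litter 2. Aldoc differed by -0.061 ± 0.040, Aldh1l1 by -0.045 ± 0.039, Glul by -0.021 ± 0.039 and Acsbg1 by -0.0099 ± 0.038. Of the radial glia and shared genes for lipid binding, Fabp7 differed by 0.010 ± 0.041 and Dbi by -0.010 ± 0.030.

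Fabp7 gave the brightest probesets of the radial glia genes, and its values ran from 13.28 to 13.46 in wildtype and from 13.26 to 13.55 in KIS-ko brains. It was higher in 3 litters and lower in 3.

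Of the 6 secreted and matrix proteins of astrocytes, 5 had negative differences. Apoe lay between 12.59 and 12.85 (median 12.67) in wildtype and between 12.46 and 12.83 (median 12.64) in KIS-ko brains, and differed by -0.059 ± 0.042, with 11 of 11 probesets and 5 of 6 litters lower. Clu differed by -0.075 ± 0.053, Cst3 by -0.034 ± 0.035, Sparcl1 by -0.019 ± 0.034 and Bcan by -0.042 ± 0.045, whereas Sparc differed by 0.012 ± 0.039. Without litter 2 the difference was -0.032 for Apoe and -0.036 for Clu. Tnc, the matrix protein of radial glia, differed by 0.053 ± 0.043 and was higher in 5 of 6 litters and in 25 of 29 probesets. Mfge8 differed by -0.018 ± 0.053.

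The channels and membrane proteins differed by between -0.078 and 0.0079: Gjb6 by -0.078 ± 0.050, Aqp4 by -0.029 ± 0.064, Gja1 by -0.022 ± 0.039, Mlc1 by -0.010 ± 0.051 and Ttyh1 by 0.0079 ± 0.041. When dim probesets were left out, which kept 1 of the 5 probesets of Gjb6, its difference was -0.27 with an unadjusted p under 0.05 (adjusted p = 0.83 in limma). Of the cytosolic proteins, S100b differed by -0.075 ± 0.10, Ndrg2 by -0.021 ± 0.042 and Mt2 by 0.019 ± 0.060. S100b was the most variable within litters, from -0.48 in litter 4 to 0.24 in litter 3, and only 1 of its 3 probesets was above control.

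**Figure D5:**
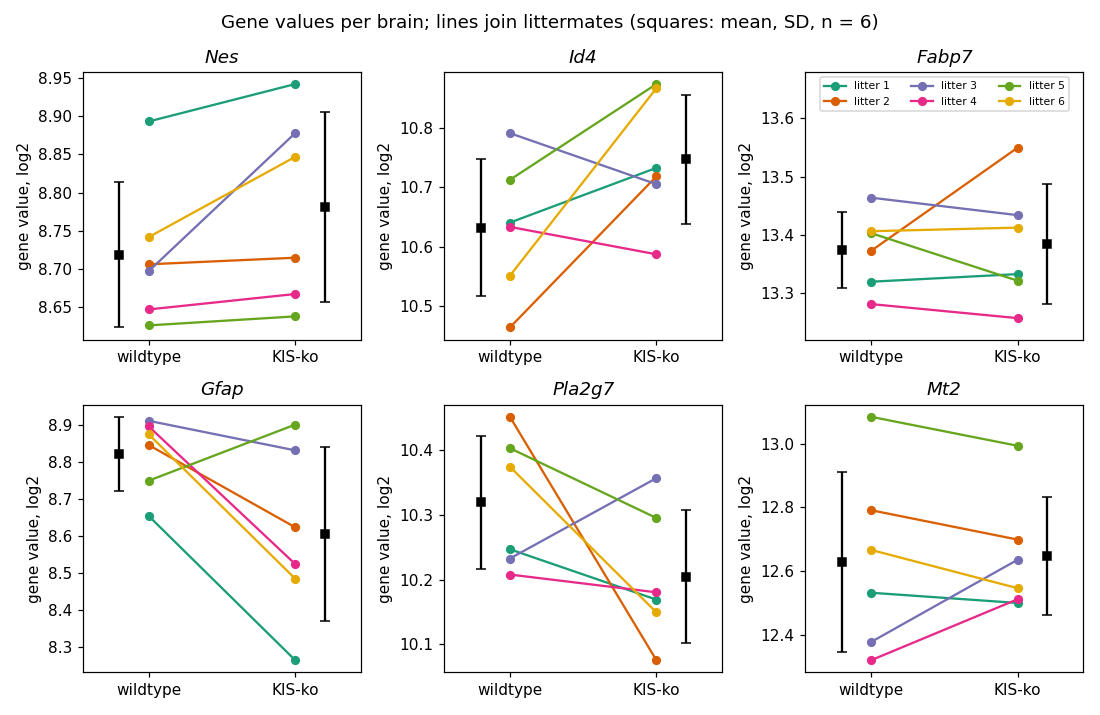
Gene values (log2, centred arrays) of Nes, Id4, Fabp7, Gfap, Pla2g7 and Mt2 in wildtype and KIS-ko brains, with a line for each pair of littermates and squares for the mean with its SD (n = 6). The lines of Nes slope upwards in all 6 litters, those of Gfap slope downwards in 5 of 6, and litter 5 is the highest for Mt2 in both genotypes.

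Other genes of the same cell types did not pass the test either. Of 16 other radial glia genes 9 were higher and 7 lower (median 0.0052). The lowest unadjusted p were those of the cortical selector Lhx2 (0.13 ± 0.037, limma adjusted p = 0.73, exact sign-flip p = 0.031, higher in 6 of 6 litters), Sox1 (0.094 ± 0.044) and the RNA binding protein Msi1 (0.076 ± 0.037). Of 19 other astrocyte genes 9 were higher and 10 lower (median -0.0097), with the urea transporter Slc14a1 at -0.18 ± 0.061 (limma adjusted p = 0.73, exact sign-flip p = 0.062), the gliogenic factor Nfia at 0.070 ± 0.033 (limma adjusted p = 0.73, exact sign-flip p = 0.031, higher in 6 of 6 litters) and Fgfrl1 at 0.076 ± 0.038. On the arrays as deposited Lhx2 was higher in 5 of 6 litters and Nfia in 3 of 6. Both medians were close to 0, and the difference between the 2 lists was not tested.

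Markers of other cells were followed in the same way, and none passed the adjusted threshold. Median differences were 0.031 for 9 neuronal genes, 0.013 for 9 oligodendrocyte lineage genes, 0.027 for 9 microglial genes, 0.0047 for 9 endothelial genes, 0.037 for 5 pericyte genes, -0.030 for 7 meningeal genes, 0.055 for 7 choroid plexus and ependymal genes, 0.074 for 5 erythroid genes and -0.017 for 9 genes of proliferating cells. Single genes with the lowest unadjusted p were Slc2a1, the glucose transporter of vessels (0.18 ± 0.065), Flt1 (0.15 ± 0.062), the pericyte gene Rgs5 (-0.11 ± 0.045) and the microglial receptor Cx3cr1 (0.14 ± 0.043). These do not stand for their lists. Of the endothelial genes 5 were higher and 4 lower (Cldn5 by -0.049 ± 0.050), and of the microglial genes 7 and 2. Of the pericyte genes 3 were higher, among them Kcnj8 (0.088 ± 0.064) and Pdgfrb (0.042 ± 0.033), and 2 lower. Over all genes 62.9% were higher. Endothelial cells also express Id1, Id3, Vim and Notch1, and microglia or vessels also express Apoe, Cst3 and Sparc. Without these genes the medians were 0.035 for 8 radial glia genes and -0.029 for 17 astrocyte genes.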

How the data were processed

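Total RNA of 12 newborn female mouse brains was hybridized to exon arrays. The authors processed the scans with the Affymetrix Expression Console, applied quantile normalization at the exon level and estimated probeset signals with PLIER; versions and genome build are not given in the sources used here. The deposited values are these linear intensity estimates, 1 per probeset and array, with no logarithm taken. Depth has no meaning for arrays, and their number, 12, limits the precision.

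The steps below were made from the deposited table. Main probesets with a gene symbol were kept when their relative standard deviation was at most 0.4 in both genotypes, as in the study's methods, which left 205469 probesets of 17279 genes. The values were averaged per gene as log2(signal + 16), and each array was centred on its median gene value. Tests between genotypes used limma (version 3.58.1, run in R 4.3.3; litter as a block, empirical Bayes moderation, Benjamini-Hochberg over all genes), and on single probesets in the same way. The pairing comes from the litter numbers in the labels, which give 1 wildtype and 1 KIS-ko brain per litter. Single genes were also tested by exact sign flips over 6 litters. Mean correlations within and between the member lists were computed in R. Those of single gene pairs used numpy 2.4.6, with ranks from scipy 1.17.1. The fit was tested on simulated data.

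The members and lists were chosen with earlier results of these data known, and the list medians carry no test. Named were all members, Uhmk1, and up to 3 genes per other list with the lowest unadjusted p. Alternatives were 3 scalings, no block, pseudocounts of 1 and 64, a stricter filter at 0.2 or none, removal of dim probesets, the median over probesets, probesets matching 1 place, another moderation, and each litter left out. Leaving out genes of mixed cell types was added after seeing the data. Motifs were searched in RefSeq promoters.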

Additional observations from a re-analysis of the deposited data

Results flagged for a closer look

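Values of single brains far from the others of their genotype were sought with Dixon's test in the 74 groups of 6 brains, of which 3 were picked out; chance picks out about 1 in 20. Each of the 3 was a brain of litter 5. Id3 was 9.12 in the wildtype brain of litter 5, against 9.36 to 9.48 in the other wildtype brains. Sox9 was 10.92 in the KIS-ko brain of litter 5, against 10.51 to 10.56 in the others. Cst3 was 12.58 in the same KIS-ko brain, against 12.32 to 12.41. The wildtype littermate of that brain was also the highest of its genotype for Sox9 (10.76) and Cst3 (12.61), and the KIS-ko littermate was the lowest for Id3 (9.14). The cause was not tested.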

How the results depend on the processing

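No alternative brought a member past the adjusted threshold. The count of members at an unadjusted p under 0.05, 1 in the fit reported, was 0 with the filter at 0.2, 0 with the median over probesets and 3 with trended, robust moderation (Gfap, Id4 and Pla2g7). Without dim probesets it was 1, Gjb6 in place of Gfap. Leaving out 1 litter at a time gave 0 to 5 such members: 0 without litter 1 or litter 6, 3 without litter 3 (Gfap, Id4 and Pla2g7) and 5 without litter 4 (Gjb6, Id1, Id4, Notch1 and Tnc). All genes at that threshold numbered 2990 of 17279 without litter 4, against 1121 of 17279 in the fit reported. Of the same 17279 genes they were 720, 830 and 563 without litters 1, 3 and 6. They were 1191 with trended, robust moderation and 1098 with the median over probesets. With the filter at 0.2 they were 1217 of 15762, and without dim probesets 581 of 11425. Without the replicate block 0 members passed the adjusted threshold and 1 the unadjusted one, and all genes past the adjusted threshold numbered 2, against 1. The median difference of radial glia genes was 0.025 to 0.052 and that of astrocyte genes -0.053 to -0.019 when 1 litter was left out; by scaling and filter they were -0.017 to 0.043 and -0.088 to -0.025. Mean r on the arrays as deposited was 0.30 among radial glia genes, 0.37 among astrocyte genes and 0.14 between them, beside 0.083 over all genes. Over litter differences of the centred values it was 0.26 and 0.38 within the lists, beside 0.046 over all genes. Over litter means of these values it was 0.054 and 0.17, beside 0.066. The values over litter differences were 0.079 and 0.65 on the arrays as deposited, beside 0.125 over all genes. Without dim probesets they were 0.077 and 0.33, beside 0.010, so that the radial glia value depended on both choices. With the shared genes counted as radial glia genes, mean r between the lists was 0.051. With the filter at 0.2 mean r was 0.054 among radial glia genes, beside 0.030 over all genes. Leaving out 1 litter gave a mean r of 0.077 to 0.23 among radial glia genes, 0.18 to 0.29 among astrocyte genes and -0.083 to 0.00037 between them, and 0.038 to 0.063 over all genes; among the shared genes it was 0.14 to 0.41. The deposited scaling shifts every difference by -0.057; the sign of 22 of 37 members turned under at least 1 alternative, and that of 17 when this scaling is set aside. On the arrays as deposited the difference turned to -0.047 for Fabp7, -0.017 for Vim, -0.017 for Hes1, -0.026 for Notch2, -0.0042 for Tnc, -0.052 for Fgfr3, -0.049 for Ttyh1, -0.045 for Sparc, -0.029 for Ntsr2 and -0.038 for Mt2. After quantile normalization of gene values the difference turned to -0.026 for Fabp7, -0.020 for Ttyh1, -0.013 for Sparc and -0.011 for Mt2. With the filter at 0.2 the difference turned to -0.0029 for Fabp7, -0.013 for Fgfr3, -0.0051 for Ttyh1 and 0.12 for S100b. Without dim probesets the difference turned to -0.019 for Fabp7, -0.024 for Fgfr3, -0.022 for Ttyh1, 0.10 for S100b, -0.016 for Sparc and -0.010 for Mt2. With the median over probesets the difference turned to 0.0051 for Sox9, -0.054 for Fgfr3, 0.011 for Dbi and 0.013 for Clu. With probesets matching 1 place the difference turned to 0.0011 for Hes5, -0.0023 for Fgfr3, 0.032 for Dbi and -0.012 for Sparc. Without the filter the difference turned to 0.0048 for Hes5 and 0.00029 for Sox9. With a pseudocount of 1 the difference turned to 0.00042 for Hes5. Leaving out 1 litter at a time turned the sign of further small differences, which ranged from -0.023 to 0.028 for Fabp7, -0.049 to 0.028 for Sox2, -0.027 to 0.019 for Hes5, -0.068 to 0.0036 for Id3, -0.041 to 0.017 for Sox9, -0.014 to 0.033 for Fgfr3, -0.013 to 0.024 for Ttyh1, -0.058 to 0.019 for Mfge8, -0.075 to 0.0049 for Aqp4, -0.14 to 0.0072 for S100b, -0.0069 to 0.032 for Sparc, -0.052 to 0.0049 for Ndrg2, -0.040 to 0.030 for Mlc1, -0.031 to 0.0080 for Acsbg1 and -0.029 to 0.047 for Mt2. The differences of 21 other members kept their sign but moved by over 1.5 times without at least 1 litter, with ranges of 0.013 to 0.067 for Vim, 0.039 to 0.073 for Nes, 0.012 to 0.061 for Hes1, 0.052 to 0.16 for Id1, 0.075 to 0.16 for Id4, 0.040 to 0.11 for Notch1, 0.0040 to 0.053 for Notch2, 0.033 to 0.090 for Tnc, -0.016 to -0.0031 for Dbi, -0.079 to -0.040 for Aldoc, -0.042 to -0.0077 for Glul, -0.046 to -0.0057 for Gja1, -0.12 to -0.053 for Gjb6, -0.070 to -0.024 for Aldh1l1, -0.087 to -0.032 for Apoe, -0.11 to -0.036 for Clu, -0.039 to -0.0068 for Sparcl1, -0.16 to -0.063 for Pla2g7, 0.00093 to 0.061 for Ntsr2, -0.056 to -0.022 for Cst3 and -0.064 to -0.0035 for Bcan. The r of Id1 and Id3 turned to 0.24 on the arrays as deposited. Over litter differences r turned to -0.073 for Gfap and Aqp4, -0.21 for Hes1 and Hes5 and -0.36 for Fabp7 and Gfap. None of these reversed values passed a test, and the cause was not tested. Signal over background limits Hes1 and Id1, which had no probeset above control.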
